A study of Mus musculus with 3 samples.

Results

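The genes of insulin-like growth factor 1 (Igf1), of the insulin receptor (Insr), the IGF1 receptor (Igf1r) and the insulin receptor-related receptor (Insrr), and of the insulin receptor substrates Irs1 and Irs2 were read in maps of methylated DNA from mouse fat. These 6 of 21887 protein-coding gene records were chosen by name, with the peak numbers and scores of these libraries at their ends already known, and every peak that touched a record or the 2000 bp on either side of it was counted as belonging to the gene. The assay, MeDIP-seq, pulls methylated DNA fragments down with an antibody and sequences them, and stretches rich in reads are called as peaks. All mice were male C57BL/6J, 6 weeks old at the start and 16 weeks old at harvest, and epididymal fat, a visceral depot beside the testis, was taken after 10 weeks on a diet. The FAD library came from mice that ate a high-fat diet and drank water holding 20 μg/mL of folic acid, the HFD library from the same diet (60% of energy from fat) with plain water, and the ND library from a normal diet (10% of energy from fat).

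Each diet had 1 library, and the labels do not say how many animals went into it. The values below therefore describe 3 libraries, carry no replicate error and were given no test. The lists held 95501 peaks in FAD, 135124 in HFD and 101532 in ND, and their peaks had median widths of 447, 587 and 507 bp. The number of reads behind them is unknown, and where a list has no peak, nothing passed the caller's threshold. Each peak has the authors' own score, on a scale that is not stated, and it is used here to rank peaks within a list. In bulk fat, a different mix of cell types and a different methylation level within a cell type cannot be told apart, and the peak lists measure no cell type markers.

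Insulin and IGF1 act through a family of receptor tyrosine kinases. The insulin receptor and the IGF1 receptor bind their hormones outside the cell and phosphorylate the docking proteins IRS1 and IRS2 inside it, which pass the signal to the PI3 kinase and Akt pathway, and in adipocytes this drives glucose uptake and lipid storage. The insulin receptor-related receptor has the same overall build but is known as a sensor of alkaline pH and not as a hormone receptor. Methylation of cytosine in CpG pairs at a gene's start is generally linked to low transcription, whereas methylation inside the body of a gene is common in active genes too.

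The gene starts come first, since they are the part of a gene where methylation is best understood. The reference table gives a start and strand for 4 of the 6 genes, Igf1, Igf1r, Irs1 and Irs2, and the 250 bases before each are printed below with every CpG in capitals, because methylated cytosines, the target of the MeDIP antibody, sit mostly in CpG pairs. The sequences are RefSeq's, from assembly GRCm38.p6, read 5′ to 3′ along the gene.
Igf1, chr10:87860861-87861110, plus strand: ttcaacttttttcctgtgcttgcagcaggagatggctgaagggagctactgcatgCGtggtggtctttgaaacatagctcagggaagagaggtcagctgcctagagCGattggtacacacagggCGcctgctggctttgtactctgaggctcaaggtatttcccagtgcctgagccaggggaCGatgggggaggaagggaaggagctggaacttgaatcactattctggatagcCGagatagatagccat
Igf1r, chr7:67952007-67952256, plus strand: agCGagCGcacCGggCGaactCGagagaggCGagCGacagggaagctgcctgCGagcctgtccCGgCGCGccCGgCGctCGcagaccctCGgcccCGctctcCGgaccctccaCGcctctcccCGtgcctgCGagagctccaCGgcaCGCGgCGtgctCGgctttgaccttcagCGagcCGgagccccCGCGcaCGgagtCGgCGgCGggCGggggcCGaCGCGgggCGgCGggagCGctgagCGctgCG
Irs1, chr1:82291440-82291689, minus strand: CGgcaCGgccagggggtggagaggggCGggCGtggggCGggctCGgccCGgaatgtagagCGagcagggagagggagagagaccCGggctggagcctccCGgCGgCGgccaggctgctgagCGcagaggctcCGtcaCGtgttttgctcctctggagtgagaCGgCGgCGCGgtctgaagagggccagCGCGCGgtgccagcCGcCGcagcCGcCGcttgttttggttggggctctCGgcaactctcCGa
Irs2, chr8:11008930-11009179, minus strand: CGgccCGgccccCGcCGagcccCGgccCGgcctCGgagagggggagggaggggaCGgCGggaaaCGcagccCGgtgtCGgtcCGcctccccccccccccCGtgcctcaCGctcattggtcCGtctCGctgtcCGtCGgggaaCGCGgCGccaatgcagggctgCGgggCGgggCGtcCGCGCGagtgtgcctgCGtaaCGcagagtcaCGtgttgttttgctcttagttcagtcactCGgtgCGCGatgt

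The listed starts of Igf1r, Irs1 and Irs2 are CpG-dense, and that of Igf1 is not. Igf1r held 42 CpG in its 250 bases, Irs2 held 34 and Irs1 held 28, with 77.6%, 72.8% and 72.4% of bases being G or C. Igf1 held 5, with 52.8% G or C. Over the 21263 starts listed for protein-coding genes the median was 10 CpG, and 93.4% of these stretches held at least 1 CG, a motif that reads the same on both strands. The Igf1 start lies 2846 bp inside the gene record, whose lower end therefore includes other sequence before it.

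No library had a peak within 2000 bp of any of these 4 listed starts. Among all listed starts, 13.7% had an FAD peak within 2000 bp, 21.6% an HFD peak and 15.5% an ND peak, and 24.7% had a peak of at least 1 library, so starts with none are the common case. Among the 8827 starts with at least 50% G or C and a CpG content of at least 0.6 of that expected from base composition, a class that holds Igf1r, Irs1 and Irs2, the share with a peak of at least 1 library was 21.8%. It was 26.8% for the other starts, among them Igf1. Measured to the nearest edge, the closest region of Irs2 stood 3507 bp inside the start and had a peak in each library, that of Irs1 stood 3692 bp inside and was found in ND, that of Igf1 stood 3473 bp before the start and was found in HFD, and that of Igf1r stood 13016 bp inside and had a peak in each library. The Igf1 record begins 2846 bp ahead of the listed start, and that HFD region stood 627 bp before the lower end of the record. The lower end of the Igf1 record thus had an HFD peak within 2000 bp, though the listed start had none. Apart from that HFD region before Igf1, the regions of these 4 genes lay in the gene body or at its far end.

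Over the 6 genes FAD had 37 peaks, HFD 53 and ND 38, in 67 separate regions once peaks that overlapped by at least 1 bp were joined across libraries. The HFD number was 1.39 times that of ND, where the whole lists stood at 1.33, and the FAD number was 0.698 of that of HFD, where the whole lists stood at 0.707. The excess of HFD peaks was thus of the size of the difference in list length. With the 95501 highest-scoring peaks of each list, which is the whole FAD list, the counts were 37 in FAD, 30 in HFD and 37 in ND. The order of HFD and ND was turned round in this total, of which Igf1r held 23, 18 and 26 in FAD, HFD and ND. At Igf1 and Insr HFD still had more peaks than ND (4 against 3 and 2 against 1). The HFD number was then 0.811 of that of ND and the FAD number 1.23 times that of HFD. Over all protein-coding genes these ratios were 1.04 and 0.943. HFD then had more peaks than ND at 2 genes and fewer at 2 (22.7% and 19% of all genes), FAD more than HFD at 3 and fewer at 0 (17.5% and 24.3%), and FAD more than ND at 2 and fewer at 1 (19.4% and 22.6%). Peaks per 100 kb over the 6 genes came to 6.02 in FAD, 8.62 in HFD and 6.18 in ND, against 4.16, 6.24 and 4.53 over all protein-coding records with their flanks. On the deposited lists Igf1r held 23 of the peaks in FAD, 36 in HFD and 27 in ND, so the totals are mostly its own. Insrr and Irs2 also stood above the values for all genes in each library, Insr and Irs1 stood below them, and Igf1 was above in FAD only.

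**Figure D1:**
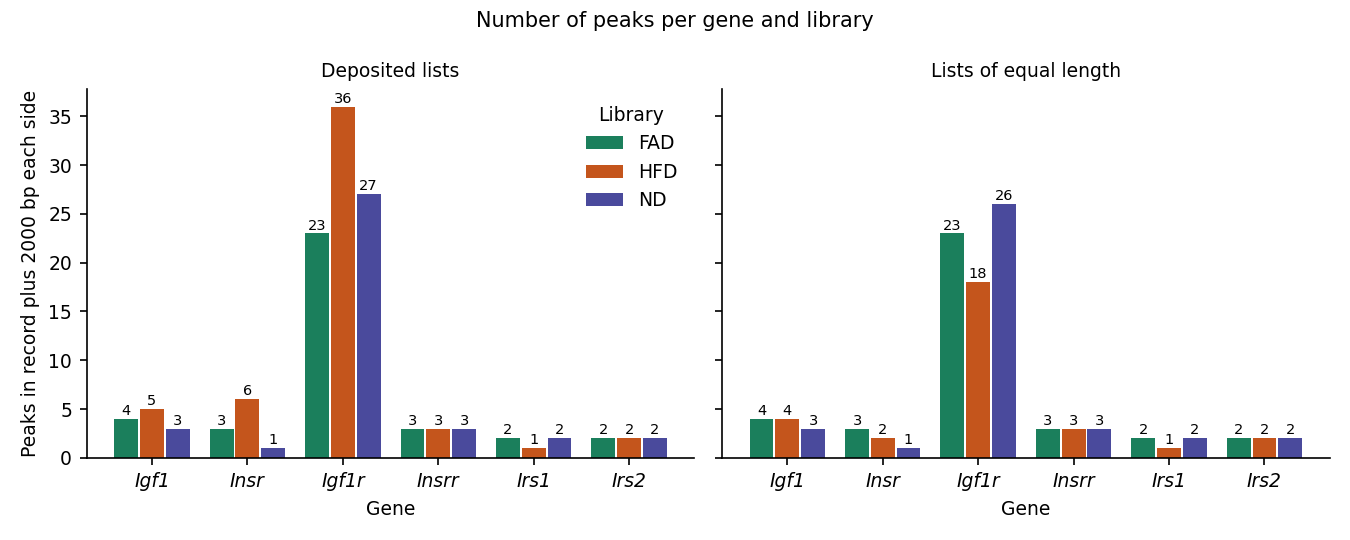
Number of peaks in each gene record plus 2000 bp on each side (vertical axis) for the 6 genes (horizontal axis) in the FAD, HFD and ND libraries, 1 library each, with the deposited lists on the left and the 95501 highest-scoring peaks of each list on the right. Igf1r has 23, 36 and 27 peaks in FAD, HFD and ND on the left, and 23, 18 and 26 on the right.

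The genes differed in the direction of their counts. HFD had more peaks than ND at 3 of the 6 genes (Igf1, Insr and Igf1r), which was so for 41.6% of all protein-coding genes, and fewer at Irs1, as at 7.79% of all genes. FAD had fewer peaks than HFD at the same 3 genes, as at 45.9% of all genes, and more at Irs1, as at 6.02%. FAD had more peaks than ND at Igf1 and Insr (16.6% of all genes) and fewer at Igf1r (26.4%). Insrr and Irs2 had equal numbers in the 3 libraries, and Irs1 in FAD and ND; over all genes, equal numbers were found at 50.6% for HFD and ND, 48.1% for FAD and HFD and 57% for FAD and ND, mostly at genes with few peaks or none. These comparisons share libraries, so they are not independent of each other, and long genes have more room to differ than short ones.

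Of the 67 regions, 25 were found in each library (37.3%, Wilson 95% interval 26.7 to 49.3%, counting error only), where 39.1% of the 79751 regions at protein-coding genes were. HFD alone had 17 regions (25.4%, interval 16.5 to 36.9%), against 24.6% at all genes. FAD alone had 7 and ND alone 7 (10.4% each, interval 5.15 to 20.0%), against 5.81% and 7.45%. HFD and ND without FAD shared 6 regions (background 12.2%), FAD and HFD without ND shared 5 (8.7%), and no region was shared by FAD and ND without HFD (2.1%). Each background share lay within the counting interval of the share at these genes, though for FAD alone the share was 10.4% against 5.81%. The intervals treat regions as independent, while 46 of the 67 were in Igf1r. They therefore do not show that the shares are alike.

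Single peaks were also followed from list to list. Of the 37 FAD peaks, 7 overlapped no HFD peak and 12 no ND peak, against 15.5% and 25.6% of all FAD peaks. Of the 53 HFD peaks, 23 overlapped no FAD peak and 22 no ND peak, against 41.4% and 38.1% of all HFD peaks. Of the 38 ND peaks, 13 overlapped no FAD peak and 7 no HFD peak, against 30.6% and 16.6%. Put as shares of the same counts, 58.5% of the HFD peaks here overlapped an ND peak (interval 45.1 to 70.7%), against 61.9% of all HFD peaks. Of the FAD peaks 81.1% overlapped an HFD peak (interval 65.8 to 90.5%), against 84.5% of all FAD peaks. These intervals cover counting error only.

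Igf1 encodes the ligand, made by liver and by many tissues including fat, and its record spans chromosome 10, 87858265 to 87937047. FAD had 4 peaks there, HFD 5 and ND 3. A region 4752 bp inside the listed start (87865863 to 87866289) had scores of 154 in FAD, 376 in HFD and 179 in ND, at percentiles 75.1, 94.3 and 78.1 of their own lists, and it was the highest-scoring region of the gene in HFD and FAD. It was followed by 48821 bp with no peak of any library, 62.0% of the record.

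Libraries differed at a pair of neighbouring regions of Igf1, 54000 and 55091 bp from the start, and at a weak region before it. At 87915111 to 87915872 the peaks were 591 bp wide in FAD, 762 bp in HFD and 381 bp in ND, and the ND score of 60.6 lay at percentile 13.3 of its list, whereas the FAD score of 117 and the HFD score of 166 lay at percentiles 61.5 and 74.4. At 87916202 to 87916926 FAD (score 84.9) and HFD (178) had a peak and ND had none, its nearest one lying 518 bp off in the first region. Both high-fat libraries thus had peaks in a stretch where the normal diet library had a low-ranking peak at one edge. Beyond the far end of the record, 87938166 to 87938956, each library had a peak, with scores of 124 in FAD, 214 in HFD and 276 in ND. The weak region before the record was an HFD peak (score 57.4) inside the overlapping long non-coding RNA gene Igf1os, and the nearest FAD and ND peaks were 8314 and 8253 bp from it.

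Insr encodes the insulin receptor and spans chromosome 8, 3150922 to 3279649. FAD had 3 peaks in this long gene, HFD 6 and ND 1, or 2.26, 4.52 and 0.753 per 100 kb. The median protein-coding gene had 3.20, 6.17 and 3.88 per 100 kb, so the gene lay below the median in each library. Of all protein-coding genes, 44.2% had a lower density in FAD, 41.4% in HFD and 35.7% in ND, a share that includes genes with no peak. In ND 64.5% of all genes had a peak and 64.3% had a higher density than Insr, so nearly all genes below Insr had no ND peak. The 1 region found in each library, 3202973 to 3203726, had scores of 67.0 in FAD, 168 in HFD and 110 in ND, at percentiles 21.7, 74.8 and 55.2 of their lists.

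The remaining Insr regions were weak. A region at 3226027 to 3226554 had peaks in FAD (52.9) and HFD (67.5), and the nearest ND peak was 22300 bp away. HFD alone had 4 regions, at 3155565, 3168521, 3239263 and 3258419, with scores of 55.9, 62.6, 76.5 and 62.1, and FAD alone had 1, at 3199341, with a score of 60.0. The HFD region at 3258419 was the most isolated, with the nearest FAD peak 31890 bp and the nearest ND peak 54692 bp away. With lists of equal length the counts were 3 in FAD, 2 in HFD and 1 in ND, and of the 4 HFD regions the one at 3239263 was still listed.

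**Figure D2:**
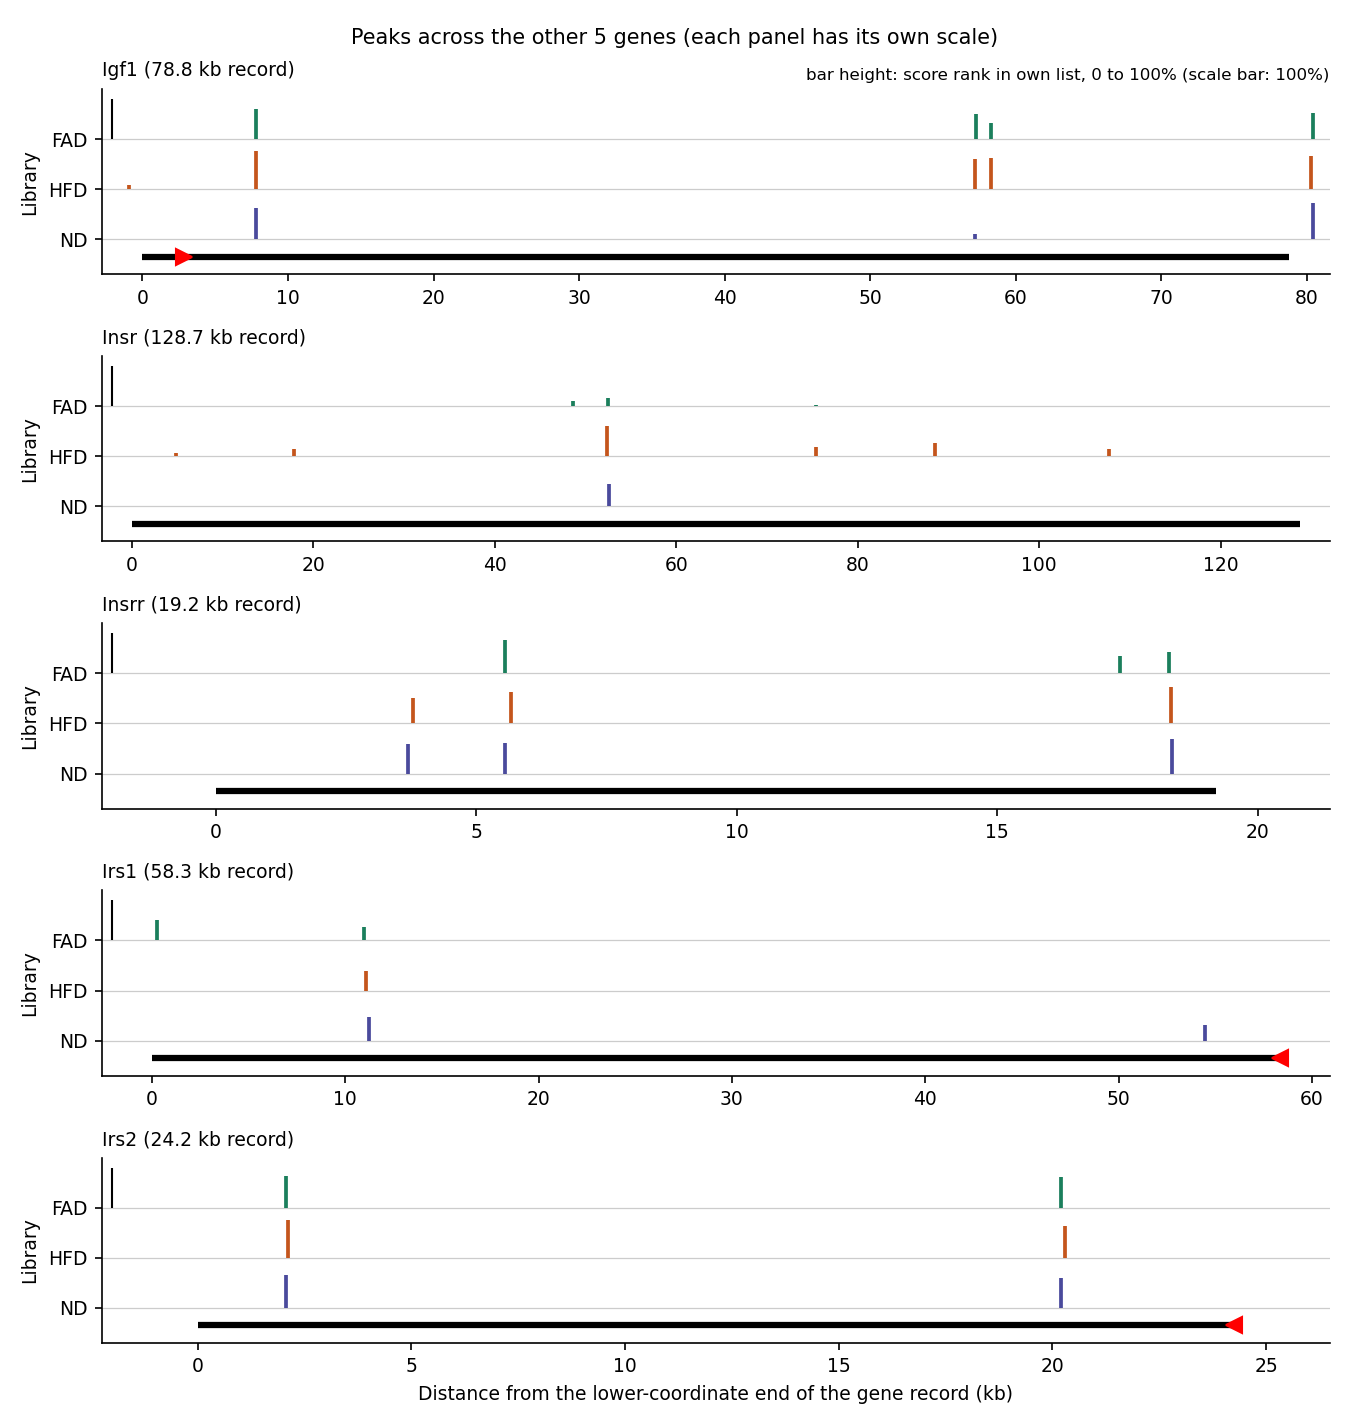
Peaks across Igf1, Insr, Insrr, Irs1 and Irs2, from top to bottom, against the distance in kb from the lower-coordinate end of each gene record (black bar, 1 scale per panel), with FAD above HFD above ND. Each vertical line is a peak drawn at its midpoint, its height is the percentile of its score within its own list, and the red arrow marks the listed start and direction where the reference gives one. Irs2 has 2 peaks in each library at matching places, while Insr has 3 in FAD, 6 in HFD and 1 in ND.

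Igf1r encodes the IGF1 receptor, the closest relative of the insulin receptor, and spans chromosome 7, 67952257 to 68233668. It was far more densely marked than Insr: FAD had 23 peaks, HFD 36 and ND 27, or 8.06, 12.6 and 9.46 per 100 kb, and 24.1%, 20.6% and 22.5% of protein-coding genes had a higher density. These peaks formed 46 of the 67 regions, with a median of 4063 bp between neighbours, so totals over the 6 genes are mostly those of Igf1r. Covered length was 9639 bp in FAD, 22336 bp in HFD and 13707 bp in ND, or 3.38%, 7.83% and 4.80% of the window.

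Peaks ran along the whole gene from 13016 bp after its start and were most frequent in the last 25% of its length, which held 9 FAD, 12 HFD and 11 ND peaks. In FAD the stretch from 68004476 to 68089531 held 1 peak, at 68040118 to 68040680, while HFD had 7 peaks between the same positions and ND had 5. The ends of this stretch were set after the values were seen. They are the end of the region at 68003210 to 68004476 and the start of an FAD peak. On the lists of equal length the stretch held 1 peak in FAD, 2 in HFD and 5 in ND. The longest stretch with no peak in any library, 25481 bp from 68064050 to 68089530, lay within it.

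The Igf1r map held 16 regions common to the libraries and 30 found in part of them. The strongest was 68003210 to 68004476, 50953 bp inside the gene, with scores of 319 in FAD, 543 in HFD and 333 in ND, at percentiles 93.8, 98.2 and 92.7 of their lists. It was the one region of the gene among the 10% of highest scores in any list. The highest score among the other common regions was at 68110173 to 68110632, with scores of 223, 160 and 266 in FAD, HFD and ND (percentiles 87.3, 72.9 and 89.0). In HFD the second-ranking common region was instead 68184303 to 68185114 (score 163). Over the 16 common regions the percentiles ran from 3.78 to 93.8 in FAD, 3.15 to 98.2 in HFD and 9.58 to 92.7 in ND, so a region held by each library was not always a strong one.

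Regions of Igf1r found in part of the libraries were mostly of low rank. HFD alone had 12 regions, led by 68011891 to 68012333 (score 139, percentile 66.9), with the nearest FAD peak 7594 bp and the nearest ND peak 6433 bp from it, and by 68204968 to 68205429 (score 108). ND alone had 6, led by 68093092 to 68093445 (score 120, percentile 60.2), with the nearest FAD peak 3237 bp and the nearest HFD peak 3071 bp away, and by 68045133 to 68045544 (score 91.1). FAD alone had 4, led by 68214831 to 68215080 (score 74.4) and 68222454 to 68222711 (score 71.9). That last FAD region ended 196 bp short of an HFD region (68222908 to 68223284), so a peak called in 1 library may have had a near neighbour in another.

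Regions shared by 2 libraries followed the same course. HFD and ND without FAD shared 5 regions of Igf1r, led by 68225978 to 68227690, where the HFD peak (score 116) covered 1713 bp and the ND peak (score 63.0) 783 bp, and by 68063458 to 68064049 (scores of 102 and 106). The first of these HFD peaks was the widest among the 6 genes. FAD and HFD without ND shared 3, led by 68089531 to 68090020 (75.1 in FAD, 50.5 in HFD) and 68125569 to 68125984 (62.3 and 68.7).

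Because the listed strand places the Igf1r start at its lower coordinate, the HFD peaks at its other end, 68232736 to 68233106 (score 58.0) and 68234505 to 68234940 (52.0), lay at the far end of the gene, 280479 and 282248 bp from its start. The nearest ND peaks were 5959 and 7728 bp away and the nearest FAD peaks 10024 and 11793 bp. The second peak stood 837 bp beyond the record, inside the window, and the next HFD peak out, 3822 bp beyond it (score 61.1), was outside. The peaks at 68232736 and 68234505 ranked low in the HFD list, at percentiles 12.0 and 3.2.

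With lists of equal length Igf1r had 23 peaks in FAD, 18 in HFD and 26 in ND, so 18 of its 36 HFD peaks were lost with the lower part of that list. Its median score was 70.7 in FAD, 73.2 in HFD and 98.2 in ND, at percentiles 26.6, 29.3 and 48.7 of their lists, and 11 FAD, 16 HFD and 6 ND peaks lay in the lowest 25% of their list. With the upper 50% of each list by score Igf1r had 7 peaks in FAD, 15 in HFD and 13 in ND. Between HFD and ND this was the same direction as with the deposited lists. Taking 50% of each list keeps the lists' relative difference in length, which lists of equal length remove. The direction of the Igf1r counts between HFD and ND thus depended on whether that difference was kept. It is not known whether the scores of the 3 lists share a scale.

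**Figure D3:**
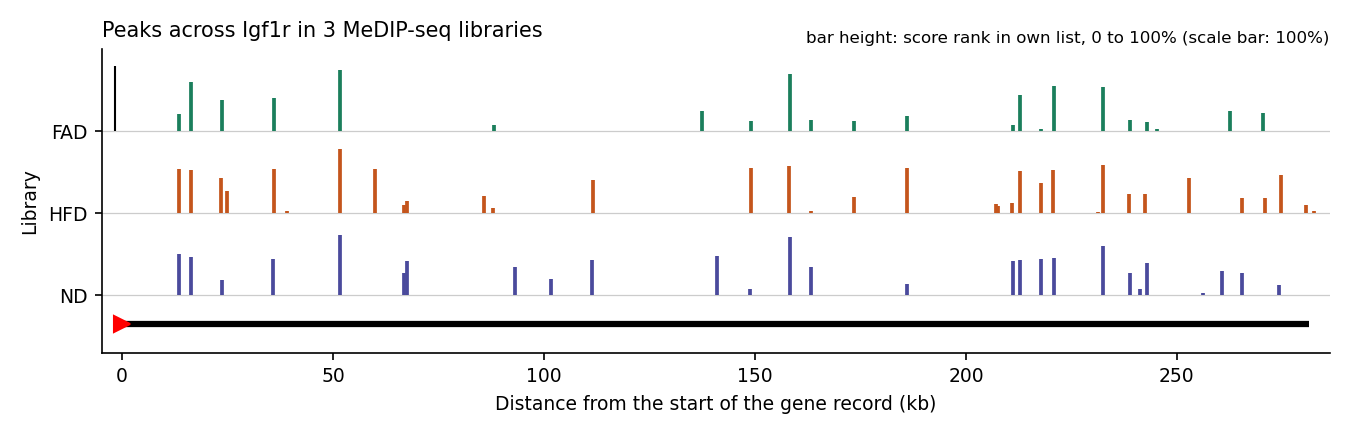
Peaks across Igf1r against the distance in kb from the start of its record (black bar, red arrow at the listed start), with FAD above HFD above ND. Each vertical line is a peak drawn at its midpoint and its height is the percentile of its score within its own list; the line near 51 kb is the strongest region in each library, and FAD has a single peak between it and 137 kb.

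Insrr, the gene of the insulin receptor-related receptor, spans chromosome 3, 87796908 to 87816101, and is the shortest gene of the 6. Each library had 3 peaks, 12.9 per 100 kb, but they were not all at the same places. Regions at 87802077 to 87803065 (scores of 193 in FAD, 188 in HFD and 168 in ND) and 87814844 to 87815642 (104, 316 and 225) were found in each library. At the second one the HFD peak lay among the highest 10% of its list (percentile 91.7) and the FAD peak at percentile 54.5.

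The third Insrr peak was elsewhere in FAD. HFD (score 132) and ND (163) had a region at 87800244 to 87801045, at percentiles 64.4 and 74.4, where FAD had none and its nearest peak was 1146 bp away. FAD had instead a peak of 310 bp at 87814117 to 87814426 (score 86.9), with the nearest HFD peak 417 bp away and the nearest ND peak 470 bp. Equal counts thus did not mean equal places.

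Irs1 encodes a main substrate of the insulin receptor in fat and muscle, and its record spans chromosome 1, 82233105 to 82291439, read from the higher coordinate. FAD had 2 peaks, HFD 1 and ND 2. The shared region, 82243814 to 82244643, 46796 bp from the start, had scores of 77.1 in FAD, 97.6 in HFD and 117 in ND, at percentiles 32.9, 48.4 and 59.0.

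Each of the other Irs1 regions belonged to 1 library. ND alone had a peak of 338 bp at 82287410 to 82287747 (score 84.1), 3692 bp inside the start, and the nearest HFD and FAD peaks were 32727 and 32967 bp away. FAD alone had a peak of 247 bp at 82233230 to 82233476 (score 98.0), 57963 bp from the start and so at the far end of the gene. Its nearest HFD and ND peaks were 10337 and 10565 bp away. The ND peak stayed on the list of equal length. The FAD list is kept whole at that length, so its peak stayed by construction. HFD had neither peak on its deposited list. The 42766 bp between the shared region and the ND region, 73.3% of the record, held no peak.

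Irs2 encodes the substrate best known for insulin signalling in liver and beta cells and spans chromosome 8, 10984681 to 11008929, also read from the higher coordinate. It was the one gene of the 6 whose regions were the same in each library. A region at 11004470 to 11005422, 3507 bp inside the start, had scores of 161 in FAD, 197 in HFD and 158 in ND, at percentiles 76.7, 80.3 and 73.3. A region at 10986321 to 10987241, 21688 bp from the start, had scores of 172, 361 and 198 in FAD, HFD and ND, and there the HFD peak lay at percentile 93.8. Both regions were also held by each list of equal length.

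**Figure D4:**
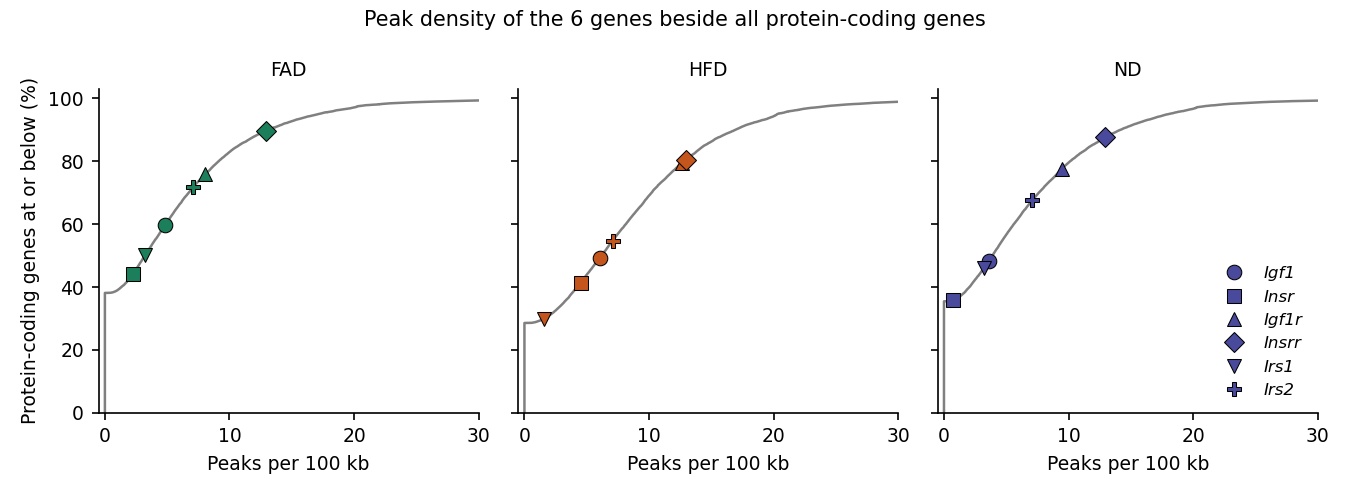
Share of protein-coding genes at or below a given peak density (vertical axis, %) against peaks per 100 kb of record plus 2000 bp on each side (horizontal axis, drawn up to 30), for FAD, HFD and ND, with the 6 genes as symbols on the curve of all 21887 genes (grey line). Insrr is at 12.9 peaks per 100 kb in each library, while Insr is at 2.26, 4.52 and 0.753 in FAD, HFD and ND.

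Widths were compared at the 25 regions found in each library. The HFD peak was the widest of the 3 at 22 regions (88.0%, interval 70.0 to 95.8%), where it was so at 69.9% of the 61211 regions with 1 peak of each library. The ND peak was the widest at 3 regions (background 22.8%), all in Igf1r, and the FAD peak at none (background 7.35%). Median widths there were 450 bp in FAD, 762 bp in HFD and 546 bp in ND. The whole HFD list also has wider peaks, the same direction as here. The share of 88.0% stood above the background of 69.9%, which lay just below its interval. That interval covers counting error only, and 16 of the 25 regions were in Igf1r. The reason for the difference was not tested.

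**Figure D5:**
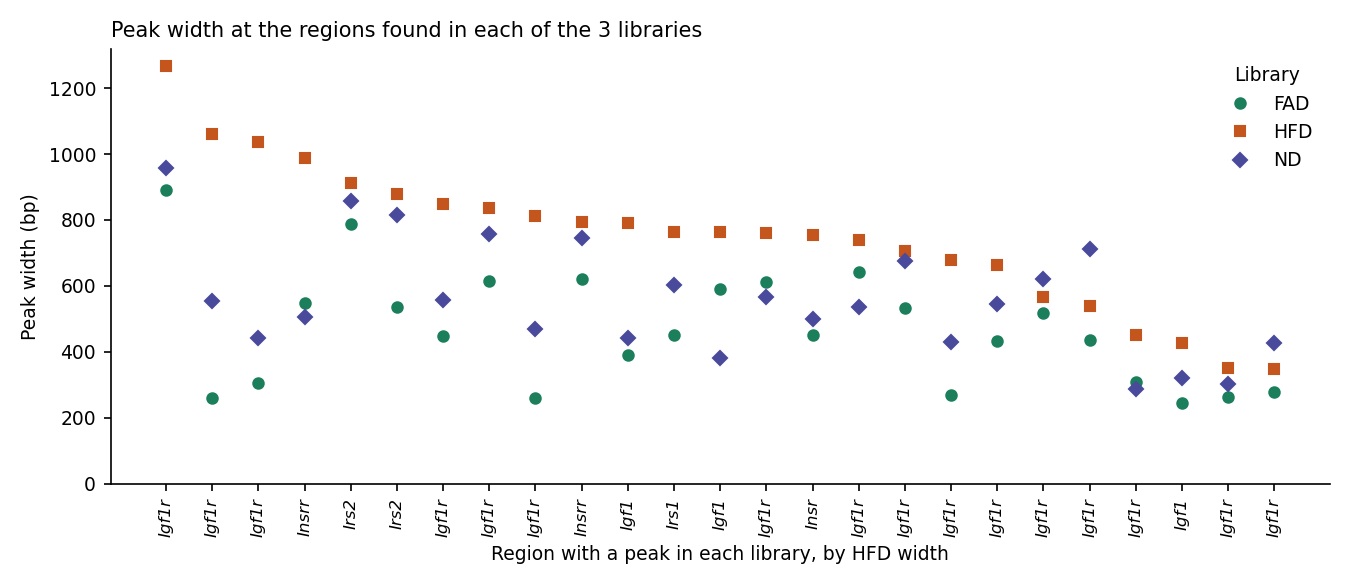
Peak width in bp (vertical axis) at the 25 regions with a peak in each library, ordered by HFD width and labelled with their gene (horizontal axis), with FAD as circles, HFD as squares and ND as diamonds. The HFD squares are highest at 22 regions, and the widest, at 1267 bp, is the strongest region of Igf1r.

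Regions found in a single library lay in the lower and middle ranks of their lists, up to percentile 51.7 in FAD, 66.9 in HFD and 60.2 in ND. Of the 17 HFD regions of this kind, 12 lay in the lowest 25% of HFD scores (52.3% of all HFD peaks of this kind did), and their median score was 60.2, against 67.7 for all HFD regions of this kind. Of the 7 FAD regions 3 lay in the lowest 25% of FAD scores and of the 7 ND regions 2 in that of ND, against 64.3% and 64.4% of all peaks of this kind. Their median scores were 71.9 in FAD and 82.9 in ND, against 64.2 and 64.4. On the lists of equal length 4 of the 17 HFD peaks remained, 3 in Igf1r and 1 in Insr, where 40.0% of all HFD peaks of this kind did. Another library had a peak within 1000 bp of 3 of the 7 FAD regions, 3 of the 17 HFD regions and 1 of the 7 ND regions. The lowest scores among the 6 genes were 50.3 in FAD, 50.5 in HFD and 53.0 in ND, beside a lowest score of 50 in each list.

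The wider pathway was read from 33 other genes of ligands, binding proteins, proteases, adaptors and inhibitors of the receptors, each of which matched the reference. They held 84 peaks in FAD, 136 in HFD and 83 in ND. HFD had more peaks than ND at 21 of the 33 genes and fewer at 2, against 41.6% and 7.79% of all genes. FAD had fewer than HFD at 21 and more at 2, against 45.9% and 6.02%. FAD had more than ND at 9 and fewer at 6, against 16.6% and 26.4%. A peak in at least 1 library was found at 29 of the 33, and among all genes with one, HFD had more than ND at 56.1% and FAD fewer than HFD at 61.8%. The median difference in peak number was 2 for HFD against ND, -1 for FAD against HFD and 0 for FAD against ND, where it was 0 over all protein-coding genes in each comparison and 1, -1 and 0 over those with a peak in at least 1 library. With lists of equal length the peaks numbered 84 in FAD, 80 in HFD and 80 in ND, and HFD had more than ND at 8 genes and fewer at 8, where 22.7% and 19% of all genes did.

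The genes named next were picked for their differences in number on the deposited lists. The records of Gab1, Pappa2, Dok5 and Grb14 span 116089, 248725, 147969 and 110291 bp, and that of Igfbp5 16801 bp. The share of all genes with differences this large and the counts of these single genes on lists of equal length are not given. Gab1, a docking protein gene related in role to the substrates, had 4 peaks in FAD, 11 in HFD and 5 in ND, the largest difference of the list for FAD against HFD and for HFD against ND. Igf2r, whose product clears IGF2 from the cell surface, had 6 in FAD, 12 in HFD and 8 in ND. Pappa2, a protease gene of IGF binding proteins, had 6, 10 and 5, the adaptor gene Dok5 had 15, 18 and 13, and Grb14, an adaptor that inhibits the insulin receptor, had 2, 6 and 2 in FAD, HFD and ND. Igfbp5, a binding protein gene, differed the other way, with 2 peaks in FAD, 2 in HFD and 5 in ND. The ligand genes Ins1 and Ins2 had no peak in any library, and Igf2 had 1 in FAD, none in HFD and 1 in ND.

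For FAD against ND the next differences after Igfbp5 were of 2 peaks and tied. They were at Igf2r and Enpp1, an inhibitor gene of the receptor (8 in FAD, 10 in ND), where FAD had fewer, and at Dok5 and the adaptor gene Grb10 (5 in FAD, 3 in ND), where FAD had more. By role, the adaptors and substrates had 36 peaks in FAD, 61 in HFD and 31 in ND, and the binding proteins 12, 18 and 16. The proteases and their inhibitor had 16, 26 and 13, and the inhibitors of the receptors 13, 19 and 14. Over all the listed pathway genes the HFD number was 1.64 times that of ND, against 1.38 over all protein-coding gene windows. With lists of equal length the pathway ratio was 1.0, and counts by role on those lists are not given.

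Genes with the most similar counts over the 3 libraries were looked up among genes within 10% of each member's length. For Igf1r the closest was Syne2, with 25 peaks in FAD, 35 in HFD and 26 in ND, at a Euclidean distance of 2.45 peaks, and then Arhgap10 (21, 33 and 30, distance 4.69). For Insr they were Ccdc146 (3, 5 and 1) and Csnka2ip (2, 6 and 1), each at a distance of 1. For Irs1 Ahctf1 and Esr2 had the same counts, as 5 genes did. Counts equal to those of Igf1, Insrr and Irs2 were shared by 7, 18 and 38 genes, among them Gapvd1 and Otoa for Igf1, Galp and Eps8l3 for Insrr, and Gtf3c2 and Rbm34 for Irs2. The numbers of genes compared were 628 for Igf1, 416 for Insr, 173 for Igf1r, 1114 for Insrr, 771 for Irs1 and 1158 for Irs2.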

How the data were processed

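Per the submitters' processing notes the 3 deposited peak lists, 1 per library, are in build mm10; they have 5 columns and no header. The names of the peaks point to MACS as the caller, but its version, settings and control and the aligner are not stated. Each peak's score is the authors' own, deposited with no stated scale. Gene records, starts and promoter sequences came from RefSeq tables of GRCm38.p6, the assembly of mm10, which give no exons; starts and sequences matched 4 of the 6 genes, and Insr and Insrr are named without one. Positions are 1-based. Peaks were assigned to a record plus 2000 bp on each side and joined across libraries where they overlapped by 1 bp; percentiles are the share of a list at or below a score. The overlap code was tested on simulated data and gave the count of bedtools in all 326126 comparisons of a peak with another list. These set HFD peaks against ND and FAD peaks against HFD and against ND, so each FAD peak entered both of its comparisons.

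The members, gene lists and naming rules were chosen with earlier results of these data known. The naming rule took all 6 genes, their highest-scoring regions by pattern and the 3 pathway genes with the largest differences per comparison, ties included. No test was run, as each diet has 1 library. Alternatives tried were the upper 50% of each list by score, lists of equal length, a reciprocal overlap of 50%, joining within 500 bp, flanks of 0 and 5000 bp, and peak midpoints. The tools were bedtools 2.31.1, matplotlib 3.10.9, scipy 1.17.1, pandas 2.3.3, numpy 2.4.6 and Python 3.11.15.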

Additional observations from a re-analysis of the deposited data

How the results depend on the processing

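Lists of equal length turned the differences in peak number round. HFD minus ND was then -7 and FAD minus HFD 7, against 15 and -16 with the deposited lists, and FAD minus ND was 0 against -1. Igf1r held 23 of these peaks in FAD, 18 in HFD and 26 in ND. HFD had 30 peaks, 4 regions were in HFD alone and 11 in FAD alone, and 83.3% of HFD peaks overlapped ND and 62.2% of FAD peaks HFD. With the 50% of peaks that scored highest, 15 FAD, 25 HFD and 22 ND peaks were left in 31 regions, 13 of them in each library, 7 in HFD alone and 1 in FAD alone; FAD peaks overlapped HFD in 93.3% and ND in 86.7%, and the differences were 3 for HFD minus ND, -10 for FAD minus HFD and -7 for FAD minus ND. Joining peaks within 500 bp gave -2 for FAD minus ND. The other totals and shares, 71 of 92 values, stayed within 1.5 times their count or inside their interval, and of 108 counts for single genes 97 did. Shorter lists hold fewer weak peaks by construction, and the upper 50% of each list keeps the lists' relative difference in length. No paired analysis was possible because each diet has 1 library. Read depth and the scale of the scores are unknown, so a weak region missing from a list cannot be told from one that was not detected.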
